A study of Mus musculus with 4 samples.

Results

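Keratins, keratin-associated proteins, cornified envelope proteins, desmosomal proteins and a few regulators of the keratinocyte lineage were examined in sorted mouse Langerhans cells. The members were the probe sets of the array with 1 gene symbol that belongs to the Krt, Krtap, Sprr, Dsg or Dsc families or equals Lor, Ivl, Flg, Trp63, Perp, Dsp, Pkp1, Jup, Sfn, Lgr5 or Tgm1. This rule took 116 of 22690 probe sets and covered 90 genes, and it used no measured value. There were 74 genes with 1 probe set and 16 with several.

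Langerhans cells are the dendritic cells of the epidermis and live between keratinocytes, the epithelial cells that build it. Keratinocytes carry pairs of type I and type II keratins as intermediate filaments, and the pair changes as they leave the basal layer. Desmosomes tie the filaments of neighbouring cells together, and in the outermost layers loricrin, involucrin, filaggrin and the small proline-rich (Sprr) proteins form the cornified envelope, cross-linked by transglutaminases. Langerhans cells are of haematopoietic origin and are not known for making keratins. TCDD (2,3,7,8-tetrachlorodibenzo-p-dioxin) activates the aryl hydrocarbon receptor, and in keratinocytes this receptor is known to speed terminal differentiation.

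The study held 4 one-colour arrays, 1 per sample. Control 1 was taken 24 h after 100 µl of DMSO and olive oil in vivo, and TCDD 1 was taken 24 h after 10 µg TCDD given in 100 µl of oil; no skin site is named for either. Control 2 and TCDD 2 came from back skin and were isolated after 24 h, TCDD 2 after 10 µg TCDD in 100 µl of DMSO and oil; the vehicle alone is not named for control 2. The series' design text gives injection into the peritoneum and 95% purity after sorting. The title of control 2 names no TCDD and its description calls it a control, but its treatment entry names TCDD, so the leading results are also given without it. With 1 array left out, 3 arrays cannot carry both factors, so every such fit compares groups without the site term (or, for sites, the treatment term). The 2 controls belong to experiments of different dates, so skin site and experiment cannot be told apart. The pair with no named site may also be back skin, so the 2 sites below mean the 2 pairs of arrays. Strain, sex, age and the number of animals behind a sample are not in the labels, and p-values here measure no more than how these samples vary, which could be technical variation.

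Values are MAS5 signals, which summarise the probes of a probe set on a linear scale. The median over all probe sets was 164.9 to 188.2 on the 4 arrays. RNA on control 1 stood apart: the 3′ to 5′ signal ratio of the actin control probe sets was 49.7 there, against 3.48 on TCDD 1, 4.64 on control 2 and 7.71 on TCDD 2. All 10 Langerhans cell markers of a fixed list passed the filter on low signal described below. Epcam, which encodes an adhesion molecule of these cells, lay between 7541 and 10032. Cd207, which encodes langerin, gave 2120 and 7211 in controls 1 and 2 and 5343 and 2155 in TCDD 1 and 2.

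Promoter sequence was described as well, since the choice of members did not use it. RefSeq promoter sequences (GRCm38.p6) were matched for 65 of the 90 genes, with 67 start sites, and the 250 bases before each start were searched on both strands. TATAAA, the core of the TATA box, stood in 41 of the 67 windows (61.2%) and in 12.4% of all 32851 windows. TGANTCA, a relaxed form of TGA(C/G)TCA, the core of the site bound by AP-1, stood in 17 (25.4%) and in 6.75% of all. GCGTG, the core of the site bound by the aryl hydrocarbon receptor, stood in 10 (14.9%) and in 28.2% of all. In the members' windows no 2 of these matches overlapped. The share of windows with TATAAA differed by role. TATAAA was in 27 of 37 windows of hair keratins and keratin-associated proteins and 11 of 13 of the cornified envelope. It was in 2 of 7 of suprabasal keratins, 1 of 7 of basal and simple keratins and 0 of 2 of desmosomal genes. The 1 window of the regulators held none. The cornified envelope genes carried most of the TGANTCA matches: 10 of their 12 matched genes held at least 1, and 11 held TATAAA. In Flg and Sprr1b the only such match was TGAATCA, outside the stricter AP-1 core. These are matches of letters and not measured binding.

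Windows of 3 genes are shown as examples of the motifs: Lor, the member with the widest spread between arrays, and Sprr1a, a steady gene of the same role, hold TATAAA and AP-1 matches, and Krt14, the main type I keratin of basal cells, holds GCGTG. Matches are in capitals, positions are counted back from the start site, and all 3 windows lie on the minus strand of GRCm38.p6. The Lor window is chr3:92083143-92083392, with TGANTCA beginning at -48 and TATAAA at -27. The Sprr1a window is chr3:92485882-92486131, with TGANTCA at -146 and -116 and TATAAA at -43. The Krt14 window is chr11:100206031-100206280, with GCGTG at -61.
Lor: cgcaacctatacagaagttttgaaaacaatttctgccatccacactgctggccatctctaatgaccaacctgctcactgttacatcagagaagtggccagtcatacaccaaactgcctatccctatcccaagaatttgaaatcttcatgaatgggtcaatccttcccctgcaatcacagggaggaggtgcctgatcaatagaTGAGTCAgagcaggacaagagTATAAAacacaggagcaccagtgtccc
Sprr1a: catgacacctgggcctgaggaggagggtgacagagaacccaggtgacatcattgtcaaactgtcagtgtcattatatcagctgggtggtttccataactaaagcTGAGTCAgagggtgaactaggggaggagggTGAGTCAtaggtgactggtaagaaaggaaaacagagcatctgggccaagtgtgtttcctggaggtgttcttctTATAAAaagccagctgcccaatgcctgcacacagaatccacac
Krt14: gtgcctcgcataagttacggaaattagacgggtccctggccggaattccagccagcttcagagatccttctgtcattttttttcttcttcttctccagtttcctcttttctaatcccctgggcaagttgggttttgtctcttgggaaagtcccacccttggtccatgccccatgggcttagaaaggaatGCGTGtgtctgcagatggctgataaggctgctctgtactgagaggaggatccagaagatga

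Signals of the keratinocyte genes were low. Their median signal was 75.4 and 78.6 in controls 1 and 2 and 73.7 and 83.4 in TCDD 1 and 2, which is below the median of all probe sets on each array. A signal over 500 on at least 1 array was reached by 4 of them and a signal over 1000 by 0, while 17.2% of all 22626 probe sets passed 1000 on at least 1 array. There were 10 above the array's own median on all 4 arrays and 77 above it on none. Of these 77, 24 lay below the array's 20th percentile (36.6 to 40.6) on all 4. Among the 24 were the single probe sets of Ivl, Krt15, Krt23 and Sfn. By role, signals ran from 7.4 to 249.5 for basal and simple keratins, 8.5 to 395 for suprabasal keratins, 3.1 to 804.7 for hair keratins and keratin-associated proteins, 5 to 772 for the cornified envelope, 1.2 to 506.6 for desmosomes and 6.3 to 224.4 for the regulators. A probe set's signal also depends on its own probes, so these positions describe the arrays and do not rank the genes by RNA. In sorted cells, fewer keratinocytes and less RNA per keratinocyte cannot be told apart.

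**Figure D1:**
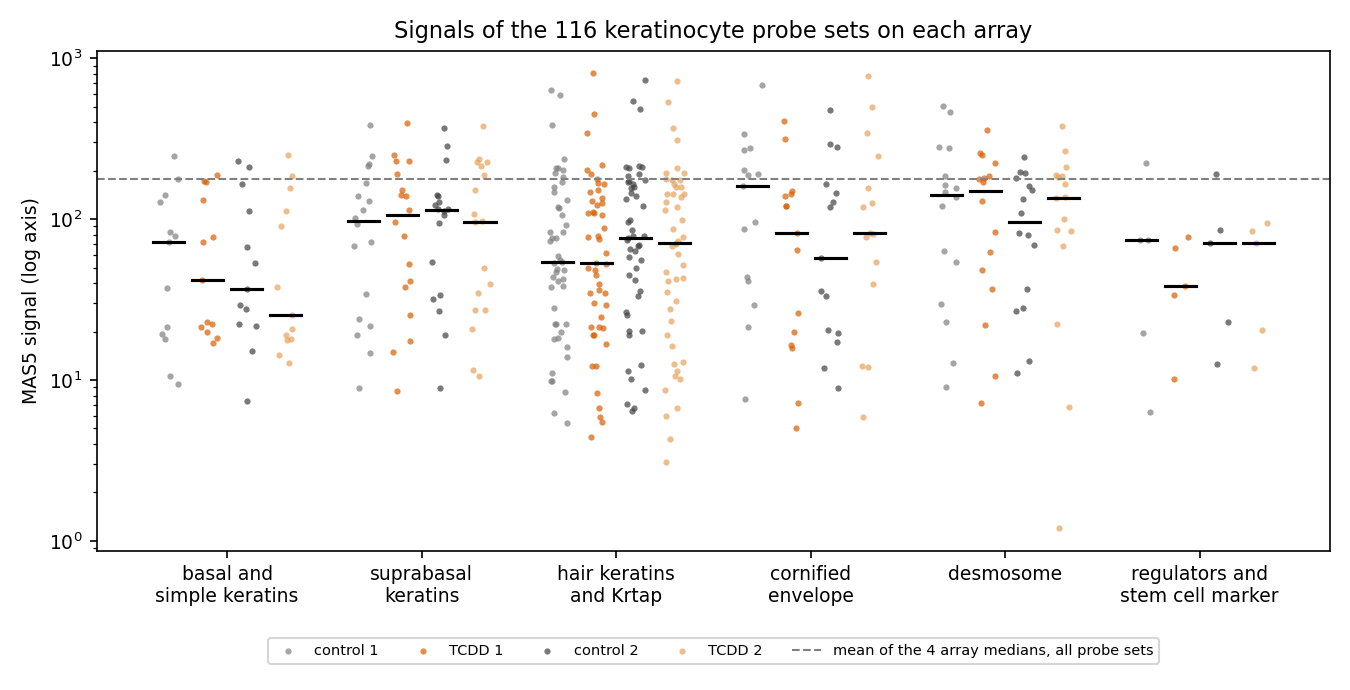
MAS5 signal (log axis) of the 116 probe sets on each of the 4 arrays, grouped by role; each point is a probe set, the black bar is the median of the group on that array, and the dashed line is the mean of the 4 array medians over all probe sets. The median bar of every group lies below the dashed line on each array, and no point reaches 1000.

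The filter for testing was a mean log2 signal at or above the 40th percentile of all probe sets, a geometric mean signal of 115.4. It left 42 of the 116 probe sets (36.2%), from 36 genes, against 13576 of 22626 overall. The remaining 74 are given by their signals alone. TCDD was compared with control in 1 limma model over all 13576 probe sets, with skin site as an additive term. Of the 42, 0 passed an adjusted p of 0.05, and each had an adjusted p of at least 0.9999 (limma); over all probe sets 0% passed. At an unadjusted p under 0.05 there was 1 member, Lgr5, and 199 probe sets in all. The median log2 difference was -0.09 over the 42 and -0.01 over all tested. For 41 of the 42 the 95% interval held 0, and for 8 it lay wholly within a 2-fold change in either direction. For the others the interval reached past 2-fold in at least 1 direction, so differences of that size were not excluded with 4 arrays.

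Without regard to the fit, both TCDD arrays lay below both controls for 10 of the 42 probe sets and for 13.2% of all tested. They lay above both controls for 5 of the 42 and for 12.4% of all tested. Without the filter the counts were 26 lower (22.4%, against 14.9% of all probe sets) and 15 higher (12.9%, against 12.8%). The lower set comprised Lgr5, Sprr3, Krt83, Krtap8-1, Krt8, Krt84, Krt32, Krt6b, and 1 probe set each of Lor and Krtap12-1. The higher set comprised Krt77, Krtap5-1, Krt75, Krt12 and 1 probe set of Dsg2.

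**Figure D2:**
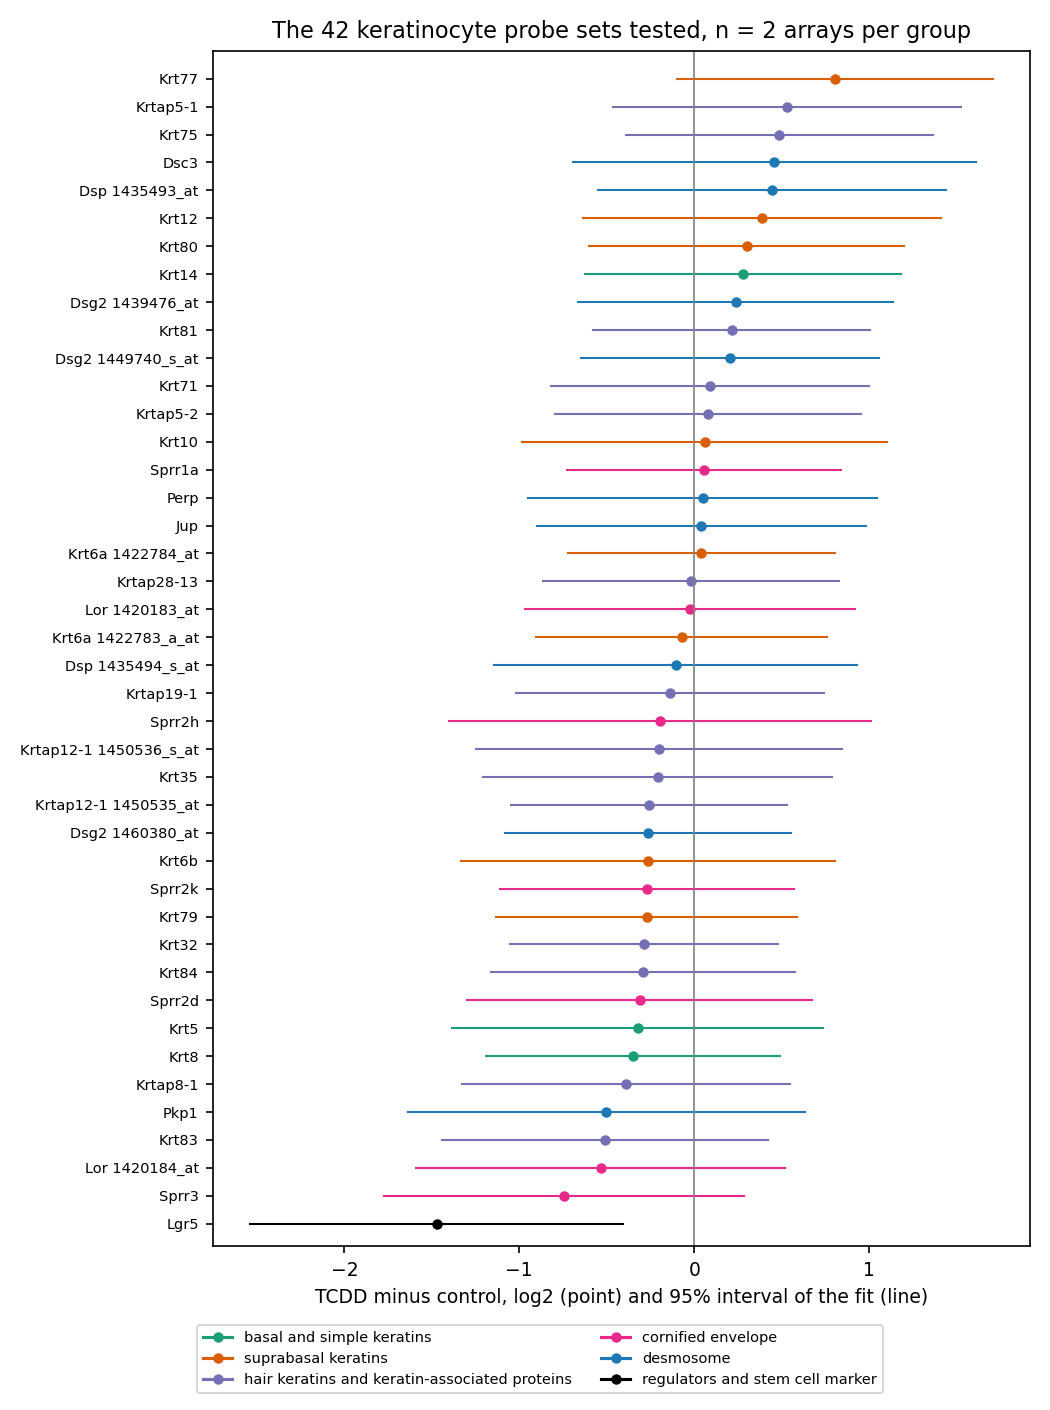
Log2 difference of TCDD minus control for the 42 tested probe sets, ordered by size; points are the fitted differences, lines their 95% intervals, and colours the roles (2 arrays per group). The interval of Lgr5 is the only one that does not cross 0, and it did not pass the adjusted test.

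Lgr5 encodes an R-spondin receptor that marks hair follicle stem cells. It had the largest difference among the 42 tested probe sets, though some untested members differed by more, in either direction. Its controls gave 224.4 and 189.8, against 65.7 and 84.2 with TCDD. Both controls were high, both TCDD arrays were low, and the groups did not overlap. Lgr5 passed the filter only through the controls, since both TCDD arrays lay below the cut of 115.4. The log2 difference was -1.47 ± 0.47 (SE, n = 2 per group; limma, unadjusted p = 0.0124, adjusted p = 0.9999). It stayed between -1.65 and -1.29 with any single array and the site term left out, and was -1.59 ± 0.58 without control 2 (limma adjusted p = 0.204). Of the other 2 genes in its class, Trp63, the transcription factor of the basal epithelial lineage, gave 74.4, 76.9, 85.3 and 71.2 by its brightest probe set on control 1, TCDD 1, control 2 and TCDD 2. The other Trp63 probe sets varied more, with 73.9, 38.5, 71.1 and 94.6 for 1452027_a_at in that order. Probe set 1451876_a_at read 6.3, 33.9, 23 and 11.9, and the probe sets of Trp63 differed in sign. Sfn (14-3-3 sigma), an epithelial cell cycle regulator, gave 19.6, 10.1, 12.6 and 20.4 in that order. Neither was tested.

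Basal and simple keratins comprised 13 probe sets of 9 genes, 3 of them tested. The brightest probe set of Krt14 gave 176.6 and 166.1 in the 2 controls, and 172.6 and 249.5 in the TCDD arrays. Only TCDD 2 was higher than the rest, and the groups overlapped (0.28 ± 0.40 log2, n = 2 per group). Its other probe sets went from 19.2 to 29.4 and from 37.8 to 76.9. Krt5, the type II partner of Krt14, gave 83.7 and 72.5 where no site is named (control 1, TCDD 1). In back skin (control 2, TCDD 2) it gave 211.5 and 156. The split followed the pair of arrays and not the treatment, and site and experiment cannot be told apart in it. Of the Krt14 probe sets, only the dimmest was higher in back skin on both arrays; the brightest showed no split by site and the third was lower there.

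The simple keratins Krt8 and Krt18 form the pair of single-layered epithelia. The brightest probe set of Krt8 gave 247.2 and 229 in the controls, against 188.7 and 184.5 with TCDD. The groups did not overlap, but the difference of -0.35 ± 0.37 was smaller than its standard error. A dim, untested probe set of Krt8 went the other way, with 10.6 and 7.4 in controls against 18.3 and 12.7 with TCDD. Krt18 lay below the filter, with 140.8, 171.3, 36.8 and 91.1 on control 1, TCDD 1, control 2 and TCDD 2, and did not follow Krt8. Krt15, a keratin of basal cells and of the hair follicle bulge, stayed between 9.5 and 21.6.

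Suprabasal keratins, which here include the keratins of stressed and mucosal epithelia, comprised 18 probe sets of 13 genes. Krt77, a type II keratin known from sweat gland ducts, had the largest difference towards TCDD among the 42. Controls gave 167.2 and 111.8, against 250.6 and 227.6 with TCDD. The TCDD arrays were the higher ones at both sites (0.80 ± 0.40, limma adjusted p = 0.9999; 0.51 ± 0.38 without control 2). Krt6a, a keratin of wounded and hyperproliferative epidermis, was the steadiest member: its brightest probe set read 387.3, 395, 366.3 and 379.5 on control 1, TCDD 1, control 2 and TCDD 2 (0.04 ± 0.34). All 4 arrays lay within 1.08-fold of each other.

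The differentiation keratins Krt1 and Krt10, partners in the layers above the basal one, did not move together. Krt1 was below the filter and gave 18.9 and 127.3 in controls 1 and 2 and 96.6 and 213.6 with TCDD. Control 1 was the low one, and its actin 3′ to 5′ ratio was the highest; the part of RNA quality in this was not tested. Krt10 read 129.8, 151.6, 115 and 106.9 in that order, with overlapping groups (0.06 ± 0.46). Krt79 (220.4, 231, 286.5 and 187.6) and Krt80 (246.3, 230.1, 140 and 227.1), type II keratins of differentiating epithelia, had no split by treatment either. The tested probe set of Krt12, the keratin of the cornea, gave 101.9 and 123.3 in controls, against 141.8 and 151.8 with TCDD (0.39 ± 0.45). Its other probe set went the other way at the site with no name (93.3 and 17.4 on control 1 and TCDD 1). Krt17, a stress keratin, had 1 probe set lower after TCDD (113.8 and 33.6 in controls, 25.3 and 27.2 with TCDD) and 1 higher (23.9 and 31.8, then 52.3 and 50). Neither was tested, and they disagreed in sign.

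Hair keratins and keratin-associated proteins, the structural proteins of the hair shaft and its sheaths, made up 49 probe sets of 44 genes, 14 of them tested. Of these 14, 5 were lower and 2 higher after TCDD without overlap, against 13.2% and 12.4% of all tested. The type II hair keratin Krt81 read 592.4, 804.7, 728.4 and 721.9 on control 1, TCDD 1, control 2 and TCDD 2, and Krtap12-1 read 634.5, 447.8, 543.3 and 536.8 in that order. The log2 differences were 0.21 ± 0.35 for Krt81, whose groups overlapped, and -0.26 ± 0.35 for Krtap12-1, whose TCDD arrays lay just below both controls (n = 2 per group). Krt32, a type I hair keratin, gave 386.9 and 486.5 in controls, against 342.9 and 368.8 with TCDD (-0.29 ± 0.34).

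Lower after TCDD at both sites were Krt83, another type II hair keratin, with 169.7 and 214 in controls against 129.8 and 137.9 with TCDD (-0.51 ± 0.41), and Krtap8-1, with 194.2 and 166.2 against 148.1 and 127 (-0.39 ± 0.41). Higher at both sites were Krt75, a keratin of the companion layer of the follicle, with 183.8 and 175.1 against 203.4 and 310.7 (0.49 ± 0.39), and Krtap5-1, with 105.9 and 120.4 against 152.7 and 174.1 (0.53 ± 0.44). None of the 4 passed the adjusted test (limma, adjusted p = 0.9999 each), and the 95% interval of each held 0. The second probe set of Krtap5-1 was below the filter and its 2 sites disagreed. Many of these genes belong to families of near-identical copies, so a probe set may also bind a relative.

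Cornified envelope genes comprised 15 probe sets of 13 genes, 7 of them tested. In these 7 the median log2 difference was -0.27, with 2 lower and 0 higher without overlap (13.2% and 12.4% of all tested). Sprr3 gave 188.6 and 145.2 in controls, against 120.4 and 81 with TCDD. It was lower after TCDD at both sites (-0.74 ± 0.45, limma unadjusted p = 0.134, adjusted p = 0.9999; -0.93 ± 0.54 without control 2). Sprr1a, whose window is shown above, read 337.7, 313, 293.1 and 342 on control 1, TCDD 1, control 2 and TCDD 2 (0.06 ± 0.34), all within 1.17-fold. Sprr1b, its close relative, was below the filter with 96.3 on control 1 and 20, 20.5 and 39.6 on the others.

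Involucrin (Ivl) stayed between 5 and 8.9 on all arrays. Filaggrin (Flg), which bundles keratin filaments, read 43.5, 26.1, 33.3 and 126.7 on control 1, TCDD 1, control 2 and TCDD 2, so TCDD 2 was the high one. Tgm1, the transglutaminase that cross-links the envelope, gave 41.2 and 19.5 in controls, against 64.1 and 54.3 with TCDD. None of the 3 genes passed the filter.

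Lor, which encodes loricrin, the main protein of the cornified envelope, had the widest spread of all members. Its probe set 1448745_s_at gave 276.7 and 11.9 in controls 1 and 2, against 7.2 and 495.6 in TCDD 1 and 2. The log2 ratio of TCDD over control was therefore -5.26 in the first pair and 5.38 in the back skin pair. Both low values lay below the 20th percentile of their arrays (39.3 and 40.6), so these folds are not exact. Probe set 1420183_at of Lor was also high on the same arrays, with 678.4 and 772 on control 1 and TCDD 2 against 407 and 479.1 on TCDD 1 and control 2. Probe set 1420184_at read 160.9, 81.8, 166.5 and 155.9 on control 1, TCDD 1, control 2 and TCDD 2, so TCDD 1 was far lower than the rest while TCDD 2 lay just below both controls.

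Other measures divided the arrays in the same way as Lor. So did other members, in either direction: Flg and Sprr1b were higher on control 1 and TCDD 2, while Perp and Jup were lower there. The actin 3′ to 5′ ratio was highest on control 1 (49.7) and TCDD 2 (7.71). Summed signals of T cell markers, 9 of 10 genes on the array with none at 0, were 688.2 and 608.2 on control 1 and TCDD 2. On TCDD 1 and control 2 they were 1210 and 1931. Single T cell genes did not all follow the sum: Cd247 gave 139.2 on control 1 and 117.5 on TCDD 1. Of the listed Langerhans cell markers, Cd207 and H2-Eb1 were also lower on control 1 and TCDD 2 than on the other arrays. The other markers of that list did not divide the arrays this way. Whether RNA quality or the mix of cells has a part in the Lor values was not tested.

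**Figure D3:**
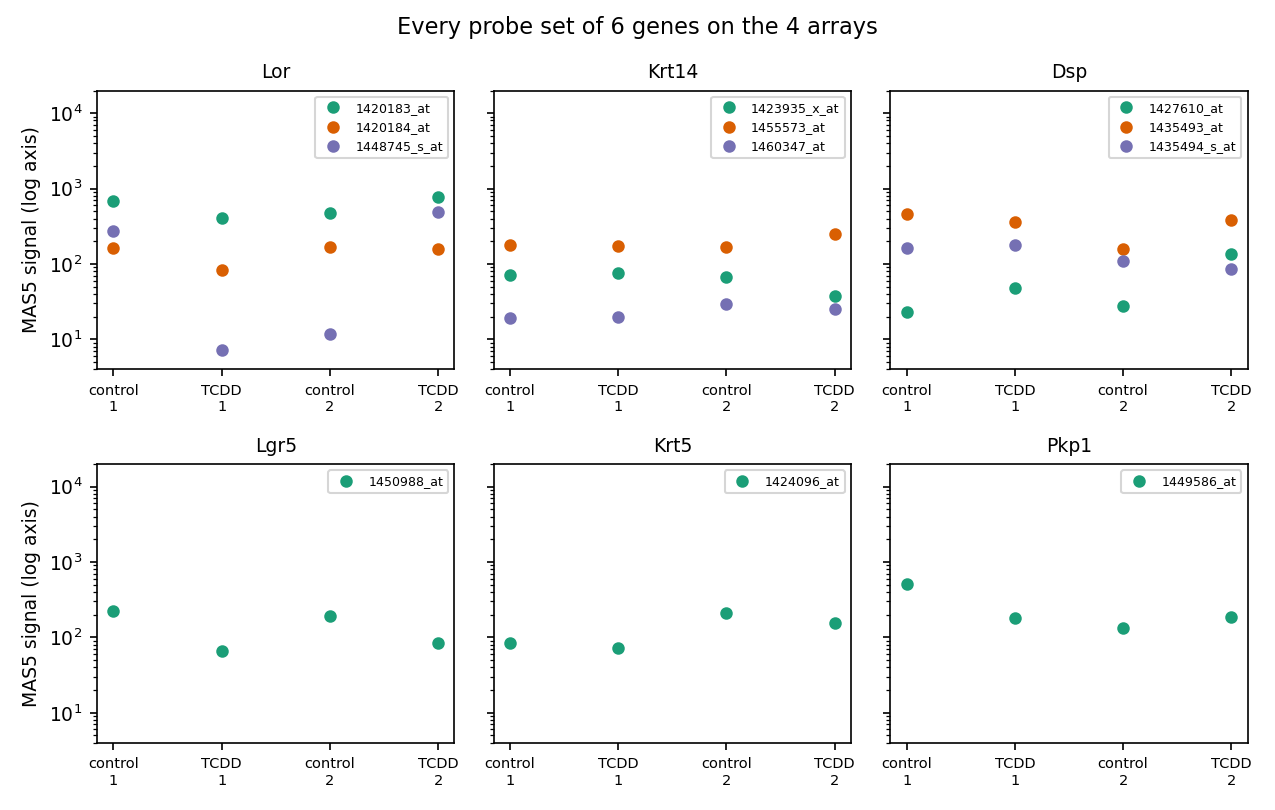
MAS5 signal (log axis) of every probe set of Lor, Krt14, Dsp, Lgr5, Krt5 and Pkp1 on the 4 arrays; each colour is a probe set. Lor 1448745_s_at is high on control 1 and TCDD 2 and at 7.2 and 11.9 on the other arrays. Lgr5 separates controls from TCDD, and Krt5 separates the back skin pair from the pair with no site named.

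Desmosomal genes comprised 16 probe sets of 8 genes, 9 of them tested, with a median log2 difference of 0.05. Of the 9, 1 was higher and 0 were lower without overlap (12.4% and 13.2% of all tested), and 7 went opposite ways at the 2 sites. Dsp, which encodes desmoplakin, the link to the keratin filaments, gave 464.1 and 159.9 in controls, against 360.8 and 381.3 with TCDD, by its brightest probe set. Control 2 was the low one, and the difference was 0.45 ± 0.44. A second tested probe set of Dsp gave -0.11 ± 0.46. The third, below the filter, gave 23 and 28 in controls against 48 and 134.9 with TCDD, higher with no overlap, so the probe sets of Dsp differed in sign.

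Pkp1, plakophilin 1 of the desmosomal plaque, gave 506.6 and 133.9 in controls 1 and 2, against 178.8 and 188.9 with TCDD. Only control 1 was high. The difference was -0.50 ± 0.50 over the 4 arrays, but -1.46 ± 0.35 in a fit without control 2 and without the site term, where it passed the test (limma, adjusted p = 0.0229). In that fit 2.1% of all tested probe sets passed and Pkp1 was the 1 member among them, against control 1 alone. Without control 1, again with no site term, the difference was 0.46, with no call. Control 1, the single high array, also had the highest 3′ to 5′ ratios; the part of RNA quality was not tested.

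The desmosomal cadherin Dsg2 had 6 probe sets, of which 3 were tested. The highest of them, 1449740_s_at, gave 276.8 and 181.2 in controls, against 251.2 and 265.4 with TCDD (0.21 ± 0.37). A second, 1439476_at, gave 185.4 and 152.6 in controls and 185.6 and 211.9 with TCDD, with no overlap by the smallest of margins (0.24 ± 0.40). The third gave -0.27 ± 0.36, so the probe sets of this gene differed in sign. Jup, plakoglobin, read 136.7, 169.1, 193.3 and 165.4 on control 1, TCDD 1, control 2 and TCDD 2 (0.04 ± 0.41). Perp, a p53-induced membrane protein of desmosomes, read 146.5, 222.5, 195.1 and 137.2 in that order (0.05 ± 0.44). Both were higher after TCDD in the pair without a named site and lower in the back skin pair.

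The direction of TCDD over control was also set side by side for the 2 sites. Each site is 1 pair of arrays, so these ratios carry no error of their own. Of the 42 tested probe sets, 9 were higher in TCDD 1 than in control 1 but lower in TCDD 2 than in control 2, as were 33.5% of all tested. The reverse held for 13 of the 42 and for 25.8% of all. Of the remaining 20, 6 were higher and 14 lower at both sites. Of all 13576 tested probe sets, 2616 were higher and 2896 lower at both. At least 2-fold in opposite directions were 5 of the 116 members (4.31%) and 4.1% of all 22626 probe sets. None of the 5 passed the filter: Lor, Krt88, Krtap5-1, Krt12 and Krt13, each by 1 probe set. Among the 16 genes with several probe sets, the sign of TCDD minus control agreed over all probe sets in 4 (Dsc2, Krtap12-1, Krtap16-3 and Krtap5-1).

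**Figure D4:**
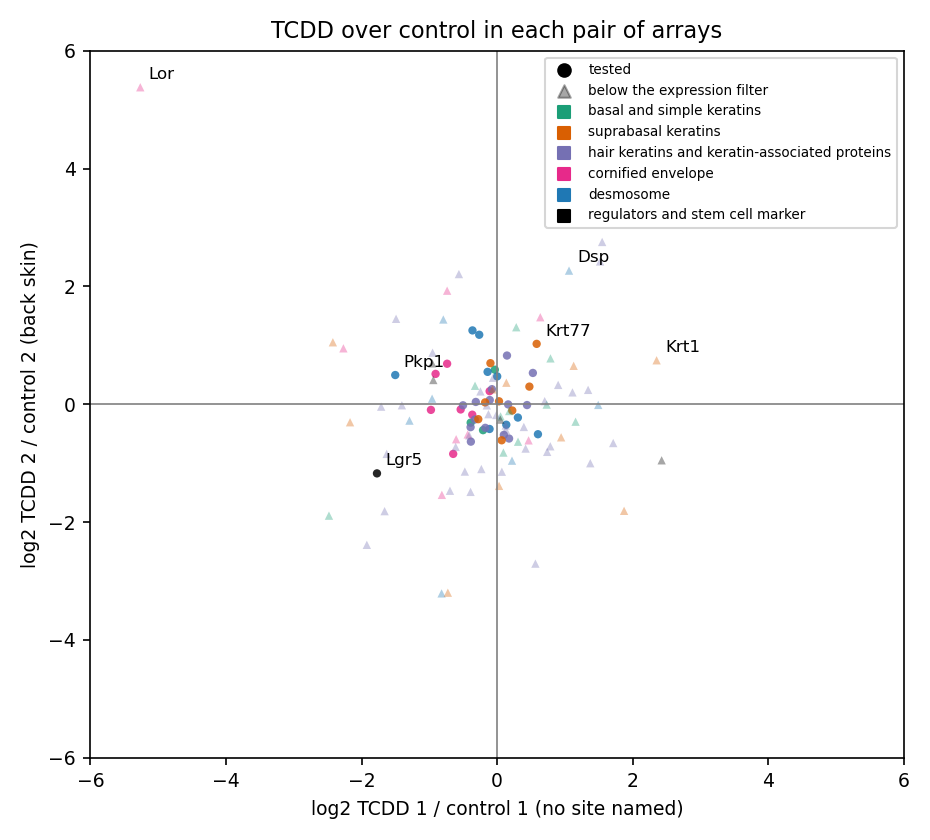
Log2 TCDD over control in the pair with no site named (horizontal) and in back skin (vertical) for the 116 probe sets; circles passed the filter, triangles did not, and colours are the roles. Lor 1448745_s_at lies alone at -5.26 and 5.38, and Lgr5 (-1.77 and -1.17) lies low in both pairs.

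Back skin was compared with the unnamed site in the same model, and this contrast carries any difference between the experiments too. Of the 42, 0 passed the adjusted test (limma, adjusted p of at least 0.9994), against 0% of all tested. At an unadjusted p under 0.05 there were 2 members and 274 probe sets in all. Both back skin arrays lay above both others for 5 of the 42 and 16.1% of all tested, and below them for 9 of the 42 and 15.9% of all. The 2 members were Krt5, higher in back skin by 1.22 ± 0.47 (unadjusted p = 0.0288), and Sprr2h, with a difference of -1.50 ± 0.53 (unadjusted p = 0.0203). Each passed the filter only through its high pair of arrays. Both arrays of the other pair lay below the cut of 115.4.

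Sprr2h, a member of the Sprr2 family of close copies, gave 267.3 and 142.5 where no site is named (control 1, TCDD 1), against 57.7 and 82.5 in back skin (control 2, TCDD 2). Sprr2k of the same family went the other way, with 191.8 and 148.8 on control 1 and TCDD 1 and 280.8 and 248.5 in back skin (0.64 ± 0.37). Sprr2d read 201.3 and 138.7, then 127.1 and 119.6 (-0.44 ± 0.43). Sprr3 differed by -0.47 ± 0.45 and Lor 1420184_at by 0.49 ± 0.46, but with 1 array left out these ran from -0.90 to -0.054 and from 0.0019 to 0.98. Krt35, a type I hair keratin, read 117 and 125.4, then 206.8 and 144.3 (0.51 ± 0.44), and a probe set of Dsp read 163.9 and 180.1, then 108.6 and 85.4 (-0.84 ± 0.46). Both back skin values of that Dsp probe set also lay below the filter's cut of 115.4. Thus the Sprr2 genes did not share a direction between sites.

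Epidermal genes outside the families gave counts of the same kind for TCDD. Without overlap, 12.4% of all tested probe sets were higher and 13.2% lower, the shares to set beside the counts below. Of 26 listed cornified envelope and barrier genes, 20 were on the array and 10 tested, with 0 past the adjusted test, 0 at an unadjusted p under 0.05, 2 higher and 1 lower without overlap and a median log2 difference of 0.17. Cdsn, corneodesmosin, gave 279.4 and 448.3 in controls, against 165.2 and 264.2 with TCDD (-0.76 ± 0.35). It was lower after TCDD at both sites, and the groups were separated by 279.4 on control 1 against 264.2 on TCDD 2. Lce1a1, a late envelope protein, read 182.8 and 357 against 255.9 and 657.3 (0.68 ± 0.34), and Dmkn, dermokine, read 273.3 and 262.3 against 407 and 423.6 (0.63 ± 0.34). Dmkn was higher on both TCDD arrays than on both controls, while the groups of Lce1a1 overlapped. Of 21 junction and basement membrane genes, 14 were tested, with 0 past the test, 0 higher and 2 lower without overlap. Pkp4, a plakophilin relative, gave 1985 and 1286 in controls, against 1462 and 952.3 with TCDD (-0.44 ± 0.34). Dst, dystonin, read 581.3 and 415.1 against 332 and 362.5 (-0.50 ± 0.35). Ctnnd1, p120 catenin, read 48.2 and 170.1 against 223.3 and 119.7 (0.85 ± 0.65). Its control 1 was the low one, and its 2 pairs went opposite ways. Of 16 transcription factors, 7 were tested, with 0 past the test, 1 higher and 0 lower. That 1 was Klf4, a factor of barrier formation, with 294 and 408.3 against 478.4 and 532.8 (0.54 ± 0.34). Grhl2 and Tfap2a, factors of epithelial differentiation, differed by -0.34 ± 0.36 and -0.20 ± 0.45.

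Markers of other cells gave 0 calls for TCDD in each list (limma), and 0 at an unadjusted p under 0.05. Of 9 melanocyte markers, all tested, 5 were lower and 1 higher after TCDD without overlap (13.2% and 12.4% of all tested), and their summed signals were 2151 and 2630 in controls, against 2081 and 1922 with TCDD. Those of 10 fibroblast and endothelial markers were 1174 and 1425, then 1211 and 1062. The list of 12 hair follicle and sebaceous markers bears on Lgr5 and the hair keratins. Of the 12 genes, 6 were tested, with 0 higher and 0 lower without overlap (12.4% and 13.2% of all tested). The 6 others lay below the filter. Among them the stem cell marker Cd34 gave 38.5 and 134.6 in controls against 78 and 107.1 with TCDD, and the bulge factor Lhx2 gave 3.5 and 72.3 against 54.5 and 10.7, both with overlap. Sox9, another bulge factor, gave 136.7 and 132.3 in controls, against 88.6 and 89.1 with TCDD, with no overlap. The part of hair follicle cells in the Lgr5 values was not tested.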

How the data were processed

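Per the labels' protocols, Trizol RNA of 4 samples underwent MessageAmp amplification and biotin labelling. Per the submitters' processing notes, affy and MAS5 were used, and no versions are named there. The authors deposited 1 linear MAS5 intensity for each probe set on each array. Each array's mean was 500 once the lowest and highest 2% were left out, so the arrays share a scale. Amplification from the 3′ end makes a signal depend on the probes' distance from that end.

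Of 22626 probe sets besides 64 Affymetrix controls, 20380 had 1 symbol in the platform annotation, 691 several and 1555 none; those with several were not named. Samples were grouped by title and description. Signals were taken to log2 and fitted with limma 3.58.1 in R 4.3.3 (lmFit, eBayes with a mean-variance trend, treatment and site as terms, Benjamini-Hochberg over 13576 probe sets). This keeps 1 residual degree of freedom, and the number of arrays limits the precision; fits with an array left out drop the second factor, since 3 coefficients on 3 arrays would leave 0. Differences are log2 with the SE. The fit was tested on simulated data. Members and lists were chosen with earlier results of these data known. Named genes were the 3 highest of each role, the 5 largest TCDD and 4 largest site differences in each direction with the same sign in both pairs, and 21 listed genes; related lists add up to 3 each. Sox9, Cd34, Lhx2 and Cd207 were named as list markers after their values were seen. Each result was recomputed after quantile normalization or centring of the medians, under no or a stricter filter, an offset, no variance trend, no second factor, 1 probe set per gene and each array left out.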

Additional observations from a re-analysis of the deposited data

Results flagged for a closer look

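The following members are listed because TCDD over control was at least 2-fold in opposite directions at the 2 sites; with 1 pair of arrays per site the difference between sites was not tested. Lor 1448745_s_at had log2 ratios of -5.26 (TCDD 1 over control 1) and 5.38 (TCDD 2 over control 2). Krtap5-1 1450540_x_at had 1.38 and -1.0, and Krt12 1419230_at had -2.42 and 1.05. Krt13 1422454_at had 1.87 and -1.81, and Krt88 1420435_at had -1.49 and 1.45. All 5 probe sets lay below the expression filter.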

How the results depend on the processing

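No keratinocyte probe set passed the test for TCDD or for the site under quantile normalization, median centring, no filter, the 60th percentile filter, an offset of 50, no variance trend, no second factor or the brightest probe set per gene. With each array left out the count for TCDD was 0 to 1 (Pkp1 without control 2), and these fits have no second factor and assume that a lone array varies like the others. Without overlap, the counts for TCDD were 15 higher and 26 lower with no filter (12.8% and 14.9% of all probe sets). At the 60th percentile, where 7 members remained, they were 0 and 2. For the site they were 17 higher and 14 lower with no filter (17.5% and 15% of all probe sets). They were 0 and 1 at the 60th percentile. Shares of all probe sets were not counted at that percentile, so nothing is read from the counts there. Leaving out 1 array, which makes separation easier, gave 9 to 16 higher and 15 to 20 lower of 42 for TCDD (26.3% to 36.9% and 26.9% to 37% of all tested) and 9 to 13 higher and 12 to 19 lower for the site (30% to 37.5% and 31.2% to 33.5%).

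Of 40 named differences, 24 kept their sign throughout and 16 reversed with an array left out; for these the cause was not tested. Their TCDD minus control ranges were -0.10 to 0.51 for Dsg2 1449740_s_at, -0.32 to 1.21 for Dsp 1435493_at, -0.64 to 0.43 for Dsp 1435494_s_at, -0.21 to 0.29 for Jup, -0.19 to 0.31 for Krt10, -0.62 to 0.20 for Krt35, -0.99 to 0.35 for Krt5, -0.00048 to 0.08 for Krt6a and -0.11 to 0.71 for Krt80. They were -0.49 to 0.44 for Lor 1420183_at, -0.30 to 0.40 for Perp, -1.46 to 0.46 for Pkp1, -0.046 to 0.16 for Sprr1a, -0.64 to 0.019 for Sprr2d, -1.30 to 0.91 for Sprr2h and -0.64 to 0.099 for Sprr2k. Low signals limit what can be read: 74 of 116 members were not tested, and the median 95% interval of those tested reached 0.92 log2 units to either side.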
